A study of Mus musculus with 14 samples.

Results

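The genes described here are 58 genes of the secretory granule and of regulated exocytosis, and what was measured near them is NKX2.2 occupancy. NKX2.2 is a homeodomain transcription factor of the endocrine pancreas and KLF4 is a zinc-finger transcription factor. A region of the authors' csaw table was taken as a member region where its nearest protein-coding gene, by gene bounds in a GRCm38.p6 gene table, was one of the 58. This gave 62 of the 6758 listed regions. They belong to 25 of the 58 genes, and no listed region lay nearest to the other 33. All samples come from alphaTC6, a tumour-derived mouse line of glucagon-producing alpha cells, labelled wild type. The cultures were transfected for 48 h with either a Klf4 siRNA or a scrambled control siRNA, and no untransfected group was labelled. The NKX2.2 antibody was used on 3 Klf4-KD and 4 siScramble cultures, which the design text calls biological replicates, and 3 and 4 matching input samples were not analysed here. The table holds no expression values, so the alpha-cell label was not checked against marker genes.

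Alpha cells store glucagon in dense-core granules and release it when calcium enters the cell. Granins such as chromogranin A and the secretogranins are packed into the granule with the hormone, where carboxypeptidase E and the amidating enzyme PAM trim and modify peptides. Rab3 and Rab27 GTPases with their effectors bring granules to the plasma membrane, RIM, Munc13 and CAPS proteins dock and prime them, SNARE proteins (syntaxin, SNAP-25 and VAMP) fuse the membranes, and synaptotagmins couple fusion to calcium.

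Each table row is a region made of neighbouring short windows. For each region the authors deposited a combined p-value, a false discovery rate (FDR) over all regions and the log2 fold change of a representative window. Which group is the numerator was not given in the sources used here, so values are reported as listed, up when positive and down when negative, and not as gain or loss with Klf4 siRNA. No value per culture and no read depth were part of the table, so neither replicate spread nor the smallest detectable difference can be stated. Only the authors' p-values, and the FDR that adjusts them over all regions, bear on whether a difference exceeded the spread between cultures. How the authors modelled that spread is not stated.

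Member regions overlapped 8 annotated promoter windows (250 bases before to 50 after a RefSeq transcription start). Of these windows, 7 are shown because they place listed regions on known sequence. They run 5′ to 3′ on the strand of transcription, from 250 bases before to 30 bases from the start, and are from RefSeq, build GRCm38.p6. Capitals mark bases inside the listed NKX2.2 region, which was not compared with input here.
Scg2 promoter, chr1:79439997-79440276, minus strand: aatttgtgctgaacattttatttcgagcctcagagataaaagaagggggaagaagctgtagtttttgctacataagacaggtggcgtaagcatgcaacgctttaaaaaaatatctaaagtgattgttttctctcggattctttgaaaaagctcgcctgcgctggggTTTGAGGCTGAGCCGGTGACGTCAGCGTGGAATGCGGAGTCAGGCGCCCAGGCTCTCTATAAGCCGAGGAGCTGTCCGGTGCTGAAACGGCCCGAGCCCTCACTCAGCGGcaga
Ptprn promoter, chr1:75264179-75264458, minus strand: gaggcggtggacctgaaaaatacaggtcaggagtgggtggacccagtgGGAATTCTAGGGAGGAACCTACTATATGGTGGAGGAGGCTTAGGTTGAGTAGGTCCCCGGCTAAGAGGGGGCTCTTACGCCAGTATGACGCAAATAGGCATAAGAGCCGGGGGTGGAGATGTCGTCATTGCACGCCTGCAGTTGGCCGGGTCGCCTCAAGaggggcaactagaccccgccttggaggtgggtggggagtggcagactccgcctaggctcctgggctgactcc
Napa promoter, chr7:16098330-16098609, plus strand: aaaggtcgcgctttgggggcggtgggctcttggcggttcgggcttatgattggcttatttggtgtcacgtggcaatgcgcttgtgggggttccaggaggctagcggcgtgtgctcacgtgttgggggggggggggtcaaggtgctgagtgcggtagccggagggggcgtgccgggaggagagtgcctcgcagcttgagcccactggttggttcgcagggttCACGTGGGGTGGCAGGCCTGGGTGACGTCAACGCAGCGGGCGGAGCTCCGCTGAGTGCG
Exoc4 promoter, chr6:33248878-33249157, plus strand: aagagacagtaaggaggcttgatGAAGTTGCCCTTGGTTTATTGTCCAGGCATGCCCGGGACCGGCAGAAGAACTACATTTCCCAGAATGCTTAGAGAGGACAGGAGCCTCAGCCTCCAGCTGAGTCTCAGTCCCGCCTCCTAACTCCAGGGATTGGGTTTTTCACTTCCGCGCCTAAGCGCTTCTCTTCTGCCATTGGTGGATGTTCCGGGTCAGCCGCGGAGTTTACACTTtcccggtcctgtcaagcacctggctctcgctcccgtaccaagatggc
Rph3al start inside the gene, chr11:75925862-75926141, minus strand: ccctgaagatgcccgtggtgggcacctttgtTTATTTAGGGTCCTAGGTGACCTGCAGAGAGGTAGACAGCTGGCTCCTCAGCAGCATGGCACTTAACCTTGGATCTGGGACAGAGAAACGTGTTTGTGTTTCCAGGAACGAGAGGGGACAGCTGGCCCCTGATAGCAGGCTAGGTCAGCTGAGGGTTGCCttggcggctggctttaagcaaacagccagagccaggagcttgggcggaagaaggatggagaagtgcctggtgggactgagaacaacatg
B230216N24Rik, a start within Pam, chr1:98047764-98048043, minus strand: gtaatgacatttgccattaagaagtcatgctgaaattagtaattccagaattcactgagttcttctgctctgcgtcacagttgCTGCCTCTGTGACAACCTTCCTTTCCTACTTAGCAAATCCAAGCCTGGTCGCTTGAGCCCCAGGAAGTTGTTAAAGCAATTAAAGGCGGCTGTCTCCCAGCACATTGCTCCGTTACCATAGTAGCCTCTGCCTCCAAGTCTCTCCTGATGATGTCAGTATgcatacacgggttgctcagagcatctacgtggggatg
Gm30263, a noncoding gene next to Syt7, chr19:10366248-10366527, minus strand: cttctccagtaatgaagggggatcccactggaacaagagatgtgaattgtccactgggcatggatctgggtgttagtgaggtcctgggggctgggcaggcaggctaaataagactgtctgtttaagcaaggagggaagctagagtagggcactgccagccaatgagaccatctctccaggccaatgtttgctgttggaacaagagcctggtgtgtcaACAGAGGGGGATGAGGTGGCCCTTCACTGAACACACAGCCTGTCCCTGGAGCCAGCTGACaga
The eighth window, at Rimbp2, lay whole within its region.

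Counting bases from 0 at the first transcribed base, the region covered -84 to 25 at Scg2, -202 to -43 at Ptprn, -29 to 30 at Napa and -227 to -18 at Exoc4. The core of NK2-class homeodomain sites, AAGTG, was searched on both strands and occurred inside the region at Rph3al (-160 to -156) and at 2 places at Exoc4 (-87 to -83 and -22 to -18). At Rph3al the match extends to the longer form TNAAGTG, which 2 of the 8 windows and 11.5% of all windows hold. Of the 8 windows 3 held AAGTG anywhere, and 46.3% of all 32544 distinct promoter windows of the table did. GGGTG, the core of KLF sites, was inside the region at Ptprn, Napa and Rimbp2, and 4 of the 8 windows held it, against 57.7% of all windows. The cAMP response element TGACGTCA was searched only after the sequences were seen, so counts of it and of its arm cannot test for an excess. The element lies inside the region at Scg2 (-68 to -61) and at Napa (-7 to 0), so in 2 of 8 windows, and 1.8% of all windows hold it. One arm of it, TGACG, is inside the region at Ptprn as well (-117 to -113, and on the other strand -80 to -76). The arm is part of the full element, and 4 of the 8 windows hold it, against 20.9% of all windows. These matches describe letters only, and no binding to them was measured.

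One member region passed the FDR threshold of 0.05, and it belongs to Rab3b, which encodes a small GTPase of secretory vesicles. By comparison, 1.36% of all listed regions passed, and 1 of 62 is 1.61%. The passing region is listed as up, as were 0.769% of all regions at that threshold, and no member region listed as down passed. An unadjusted p-value under 0.05 was deposited for 8 member regions (12.9%) and for 11.2% of all regions. Of these 8, 7 are listed as up (11.3% of member regions, against 7.55% of all regions) and 1 as down (1.61% against 3.68%). The shares of member regions past either threshold were thus close to those of the whole table. Only 6726 of the listed regions lie on assembled chromosomes and could be assigned a gene. Of those, 1.25% passed the FDR threshold and 10.9% had an unadjusted p-value under 0.05. The 8 regions belong to 8 different genes, namely Rab3b, Rab3a, Rab3c, Pam, Ptprn, Ptprn2 and Stxbp5l among those listed as up and Syt7 for the one listed as down. After Rab3b, the smallest FDR of a member region in the authors' deposited table was 0.273, so none of the p-values given below for other genes passes adjustment.

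**Figure D1:**
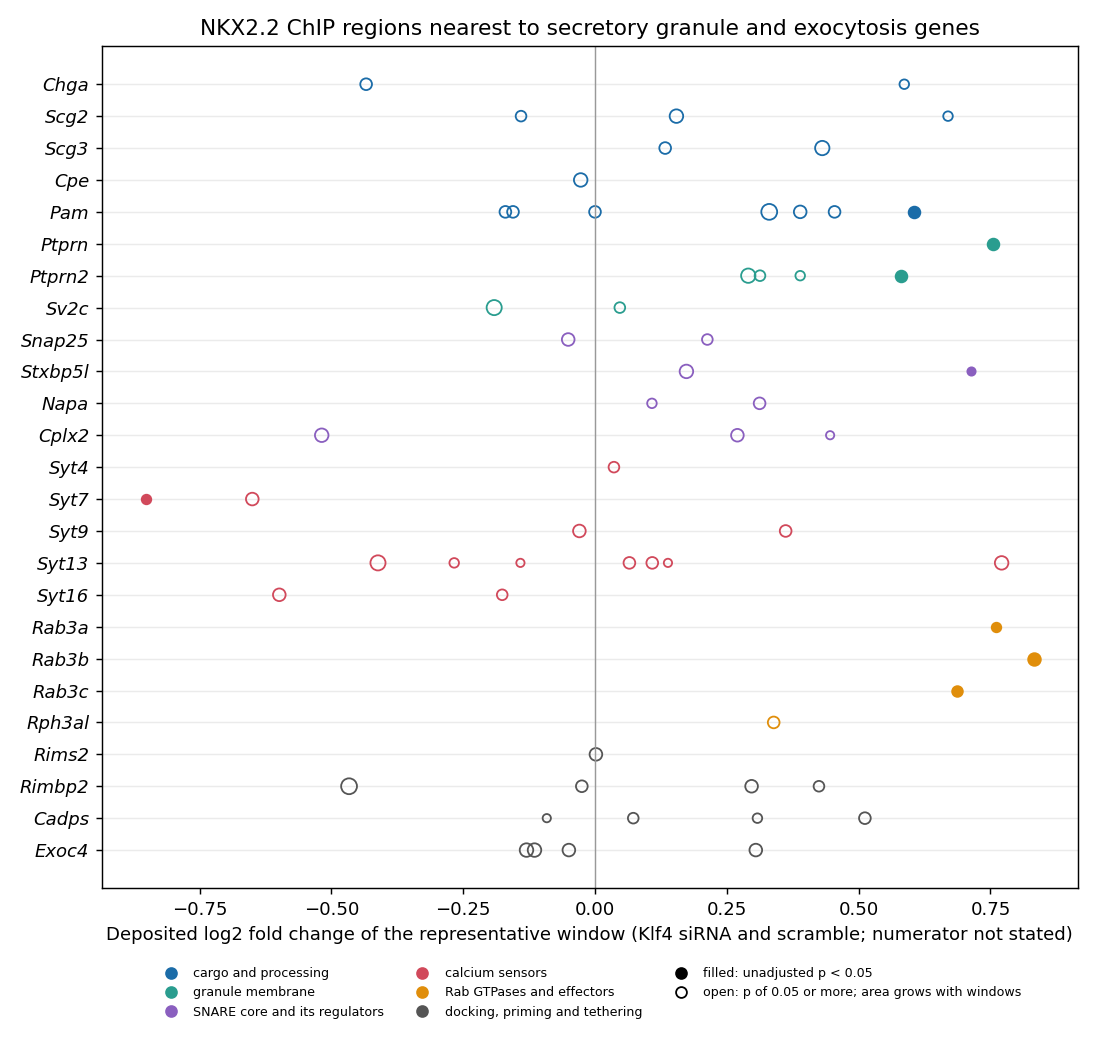
Deposited log2 fold change (x axis) of each of the 62 member regions, by gene (rows) and role (colour), with filled points for an unadjusted p-value under 0.05 and larger points for more windows. The 3 Rab3 genes stand between 0.69 and 0.83, a range that also holds 1 region each of Syt13, Ptprn and Stxbp5l, while both Syt7 regions stand at the left, at -0.85 and -0.65.

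Rab GTPases and their effectors had 4 listed regions, 1 each at Rab3a, Rab3b, Rab3c and Rph3al, and all were positive. Of all listed regions 56.8% were positive, the share to set beside the sign counts of this and the following groups. At Rab3b the region chr4:108941201-108941410 lies inside the gene, 62.2 kb after its start and 2.0 kb from the far end. The authors' deposited table gives it a log2 fold change of 0.83 (1.78-fold), an unadjusted p-value of 1.71e-05 and an FDR of 0.00428, with 4 of its 5 windows counted as up. It ranked 26 by p-value and 143 by fold change among the 6758 regions. The neighbouring listed regions lay far off and differed in value. The nearest one before it, 93.4 kb away and inside Txndc12, had a deposited log2 fold change of -0.74 (the authors' p = 0.0245, FDR 0.323). The nearest one after it was 465.1 kb away, inside Ttc39a, at 0.38 (the authors' p = 0.731).

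Rab3a and Rab3c encode close relatives of Rab3b that likewise sit on secretory vesicles. The Rab3a region chr8:70756351-70756410 lies within the gene, 1.3 kb after the nearest annotated start, at a deposited log2 fold change of 0.76 (the authors' p = 0.0426, FDR 0.413). The Rab3c region chr13:110283951-110284060 lies 3.0 kb outside the gene on the side of its start, at 0.69 in the authors' deposited table (p = 0.0210, FDR 0.297). They rest on 2 and 3 windows, fewer than at Rab3b, and neither passed adjustment. The Rab3b region thus stands alone among the 3 in passing it, with listed values of similar size and the same sign at the other two. Whether the 3 genes differ was not tested. A second region near Rab3a, 119 bp from Mpv17l2 and assigned to it, had a deposited value of -0.11 (the authors' p = 0.737). Rph3al, or Noc2, is a Rab3 and Rab27 effector. Its region lies wholly upstream of the annotated start printed above, 60 bases or more from it, and was listed at 0.34 (the authors' p = 0.380). Rab27a, Rab27b, Sytl4, Sytl5 and Rph3a had no listed region.

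**Figure D2:**
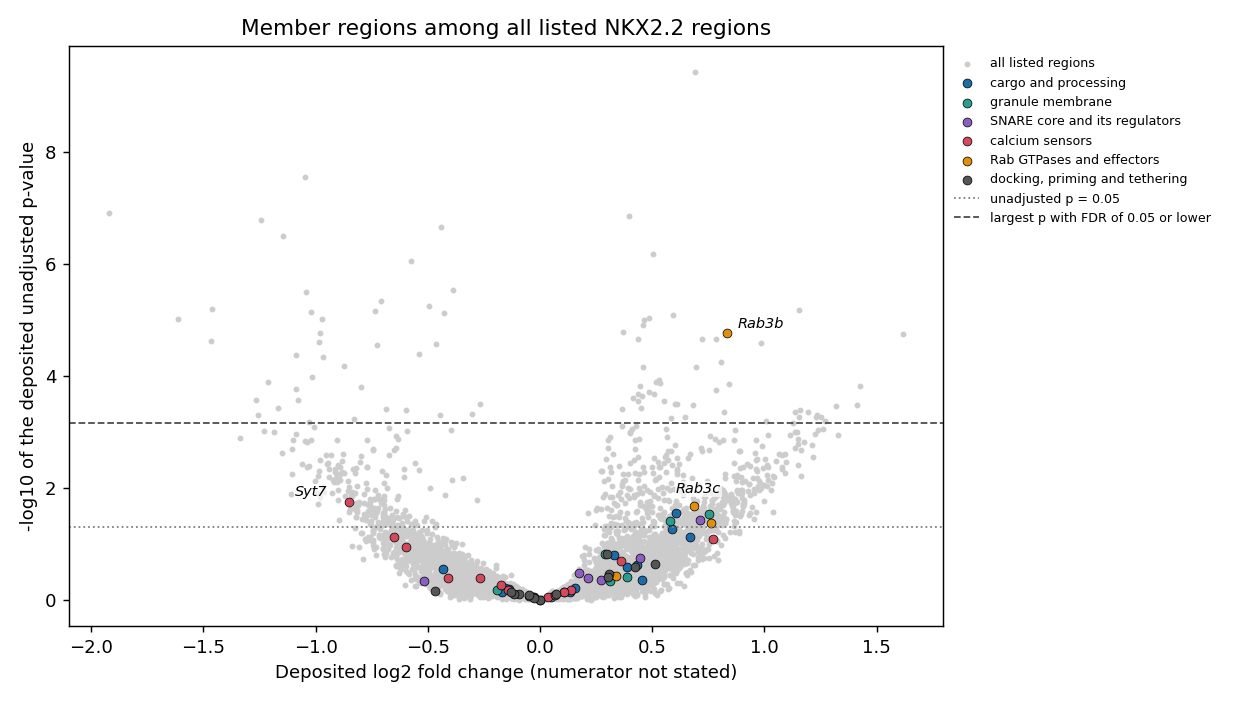
Deposited log2 fold change (x axis) against the -log10 of the deposited unadjusted p-value (y axis), with all 6758 regions in grey and the 62 member regions coloured by role. Rab3b is the only member point above the dashed line, which marks the largest p-value with an FDR of 0.05 or lower, and 8 member points lie above the dotted line at an unadjusted p-value of 0.05.

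Genes of granule cargo and peptide processing had 15 regions at 5 of 8 genes, 9 positive and 6 negative, and their median deposited log2 fold change was 0.15. Chgb, Scg5 and Vgf had none. Pam, which makes the amide end of many peptide hormones, had 7 regions, the joint highest number among the members. In the authors' deposited table they ran from -0.17 to 0.60. The highest, chr1:98047801-98047960 (the authors' p = 0.0276, FDR 0.340), lies within Pam 47.8 kb after its start and overlaps 160 bases of the promoter window of the noncoding gene B230216N24Rik printed above, upstream of the start. The next highest values, 0.45, 0.39 and 0.33, belong to intragenic regions 205.8, 208.0 and 176.9 kb after the start (the authors' p = 0.448, 0.255 and 0.157). The region at 0.33 also overlaps the noncoding gene Gm31771. All 4 positive regions thus lie in the gene body, but so does every other Pam region except the one outside the gene named next. The region at the far end of the gene, at -0.16, and the one 94.4 kb outside it, at -0.17, were negative (the authors' p = 0.607 and 0.719). The one outside overlaps the noncoding gene Gm29461. The remaining region, 21.9 kb after the start, was at -5.5e-05.

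Chga encodes chromogranin A, a matrix protein of dense-core granules. It had 1 region 22.2 kb before the gene at a deposited log2 fold change of 0.59 (the authors' p = 0.0545) and another 3.5 kb before it at -0.43 (p = 0.276). Scg2 encodes secretogranin II. The region at its promoter, chr1:79440001-79440110, was listed at -0.14 (the authors' p = 0.641), and those 14.7 and 41.7 kb before the gene were listed at 0.67 (p = 0.0767) and 0.15 (p = 0.623). At both genes, then, the region closest to the start was negative and the farthest positive, and none had a p-value under 0.05. Scg3, a sorting partner of chromogranin A, carried 2 intragenic regions at 0.43 (the authors' p = 0.241) and 0.13 (p = 0.736). Cpe, the carboxypeptidase that trims basic residues from prohormones, had 1 intragenic region of 710 bp at -0.03 (the authors' p = 0.902).

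Among granule membrane proteins, 6 of 7 regions were positive, against 56.8% of all listed regions, with a median deposited log2 fold change of 0.31. The 7 regions belong to 3 genes, and 4 of the 6 positive ones to Ptprn2 alone. Ptprn and Ptprn2 encode IA-2 and phogrin, transmembrane phosphatase-like proteins of the dense-core granule and autoantigens of type 1 diabetes. At Ptprn the one region, chr1:75264251-75264410, lies on the promoter. The authors' deposited table lists it at 0.76 (p = 0.0290, FDR 0.348) with 2 of 4 windows counted as up. The p-value the authors deposited for its best window is 0.0533. Whether that value is adjusted for the number of windows was not stated, so it is not read as that window's own p-value. The Ptprn region is the only one within 1 kb of a member's end with an unadjusted p-value under 0.05. Ptprn2 had 4 regions and all were positive. They were listed at 0.39 outside the gene, and at 0.29, 0.31 and 0.58 within it, 5.1, 224.0 and 621.6 kb after the start. The last of these, chr12:117107251-117107410, had a deposited p-value of 0.0384 (FDR 0.394), and the others lay at 0.150 or higher. Sv2c, a vesicle glycoprotein, had 2 regions at -0.19 and 0.05 (the authors' p = 0.661 and 0.874). Sv2a and Sv2b had none.

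Of the 16 genes of the SNARE core and its regulators, 4 had regions, against 20.8% of all protein-coding genes. They had 9 in all, with 7 positive and a median deposited log2 fold change of 0.21. No region was nearest to Stx1a, Stx3, Stx4a, Vamp2, Vamp3, Vamp8, Snap23, Stxbp5, Nsf, Napb, Cplx1 or Dnajc5. Snap25, the plasma-membrane SNARE, had an intragenic region at 0.21 (the authors' p = 0.415) and one 33.3 kb away at -0.05 (p = 0.840). The latter overlaps the noncoding gene Gm32659. Stxbp5l encodes a tomosyn, which competes with VAMP for syntaxin. It had a region of 1 window, chr16:37390251-37390260, 5.2 kb outside the gene at a deposited 0.71 (the authors' p = 0.0378, FDR 0.391), and another 40.8 kb away at 0.17 (p = 0.334). Napa, the adaptor that recruits NSF to take SNARE complexes apart, had its promoter region at 0.11 (the authors' p = 0.710) and a second one 4.9 kb after the start at 0.31 (p = 0.353). Cplx2, a complexin that clamps and assists fusion, had a 660 bp region 1.6 kb after the start at -0.52 (the authors' p = 0.464) and 2 regions outside the gene at 0.45 and 0.27 (p = 0.182 and 0.449). The 660 bp region also overlaps the noncoding gene LOC115488208.

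Calcium sensors had the lowest median deposited log2 fold change of the role groups drawn up here, -0.09, with 8 of 14 regions negative. Syt13 alone held 7 of the 14, and 56.8% of all listed regions were positive. Whether the groups differ was not tested. Syt7 encodes a high-affinity synaptotagmin used in islet hormone release. Both of its regions were listed as down. The first, chr19:10366251-10366310, lies 22.5 kb from the gene on the promoter window of Gm30263. It had the lowest deposited log2 fold change of all member regions, -0.85 (the authors' p = 0.0175, FDR 0.273), and both its windows were counted as down. The second, chr19:10388601-10388810, spans one end of Syt7 and was listed at -0.65 (the authors' p = 0.0746). The opposite sign to the Rab3 regions is a description of listed values, since no difference between genes was tested.

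Syt13, an atypical synaptotagmin, had 7 regions of both signs, 4 within the gene and 3 on the flank before its lower-coordinate end. All 3 on the flank overlap noncoding genes, the farthest Gm39880 and Gm32413 and the others Gm13791. In the authors' deposited table the intragenic ones were at -0.27, 0.77, 0.11 and -0.41. The 0.77 region, chr2:92931251-92931510, had a p-value of 0.0828, and the other 3 had p-values of 0.404 or higher. The 3 outside, 107.5, 61.7 and 2.4 kb away, lay between -0.14 and 0.14. Its highest and lowest regions thus both lie inside the gene, and neither had a p-value under 0.05. Both Syt16 regions were intragenic and negative, at -0.60 (the authors' p = 0.114) and -0.18 (p = 0.539). Syt9, a fast calcium sensor, had an intragenic region at -0.03 (the authors' p = 0.882) and one 145 bp past an end at 0.36 (p = 0.205). The region chr18:31447401-31447510 at an end of Syt4, a granule synaptotagmin of islet cells, was at 0.04 (the authors' p = 0.900). Syt1, Syt5, Syt11, Syt14 and Doc2b had no listed region.

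**Figure D3:**
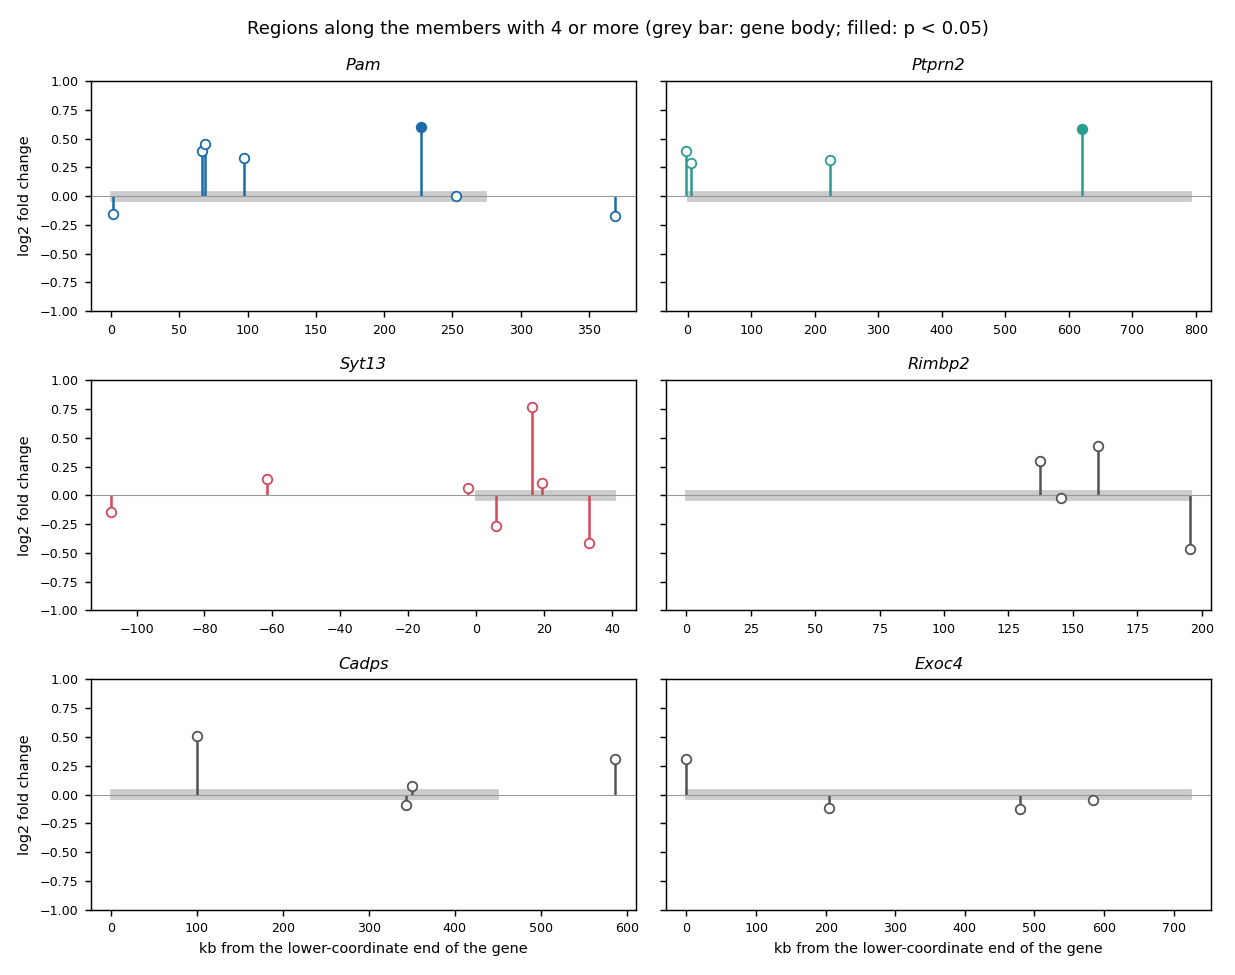
Position of each region (x axis, kb from the lower-coordinate end of the gene, grey bar for the gene body) and its deposited log2 fold change (y axis) for the 6 members with 4 or more regions. Ptprn2 has positive values only, and Syt13 mixes signs within 41.0 kb. Pam has its 4 highest within the gene body, where all its regions lie except the one 94.4 kb outside.

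Docking, priming and tethering genes had 13 regions at 4 of 10 genes, 7 positive and 6 negative, with a median deposited log2 fold change of 0.00 and a smallest p-value of 0.153. Rimbp2, which links RIM to calcium channels, had 4. The widest member region, 810 bp and 9 windows, covers its promoter at -0.47 (the authors' p = 0.703), and the intragenic ones 35.8, 50.2 and 58.6 kb after the start were at 0.42, -0.03 and 0.30 (p = 0.255, 0.938 and 0.153). Cadps, the CAPS protein that primes dense-core granules, had values of 0.51, -0.09 and 0.07 within the gene and 0.31 at 136.2 kb outside it, with p-values of 0.225 or higher. Exoc4, a subunit of the exocyst tethering complex, had its promoter region at 0.30 (the authors' p = 0.384) and 3 intragenic ones between -0.13 and -0.05. The promoter region also overlaps the pseudogene Gm1401, and the intragenic one at -0.11 overlaps the noncoding gene Gm38785. Rims2, a RIM scaffold, had 1 region at 0.00 (the authors' p = 0.994). The Munc13 genes Unc13a, Unc13b and Unc13c had none, nor had Rims1, Cadps2 and Exoc6.

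Over the 62 regions the median deposited log2 fold change was 0.14 (95% interval from order statistics -5.5e-05 to 0.31), and over all listed regions it was 0.04 (0.03 to 0.05). These intervals treat regions as separate draws. Regions are not replicates, and Pam and Syt13 hold 7 each, so the intervals describe the lists and test nothing. The log2 fold change was positive in 39 member regions (62.9%), against 56.8% of all regions. The member regions ran from -0.85 to 0.83, well within the range of the table, and 9 were listed as mixed. Signs varied within genes as well as between them. By the sign of the representative window, 11 of the 17 members with more than 1 region had both signs. On that count 4 were positive in every region (Scg3, Ptprn2, Stxbp5l and Napa) and 2 negative in every region (Syt7 and Syt16). One Scg3 region and the Napa promoter region are listed as mixed, and the best window of the latter is at -0.15. A further region near Napa, overlapping Kptn and assigned to it, was listed at -0.40 (the authors' p = 0.433). Of the 257 windows in member regions, 13 were counted as up (5.06%, against 4.63% of all windows) and 2 as down (0.778%, against 7.66%). The rule for these window counts was not given, and they are not counts of positive or negative windows. The Syt13 region at 0.77, for example, is listed as up with 0 windows counted as up. Regions wider than 1 kb, of which the table has 103 and the members none, hold 74.2% of all down windows. The shares over all windows include regions off the assembled chromosomes, which could not be member regions.

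Member regions had a median width of 160 bp and 4 windows, above the 110 bp and 3 windows of the whole table. Of the 62, 43 overlapped the member's gene (69.4%, against 56.1% of annotated regions) and 8 had their midpoint within 1 kb of a gene end (12.9%, against 26.0%). Those 8, at Scg2, Ptprn, Syt4, Syt7, Syt9, Exoc4, Napa and Rimbp2, had a median deposited log2 fold change of 0.07 and 5 were positive. Over all 1752 regions so placed the median was -0.05 and 41.5% were positive. In the 36 intragenic member regions farther from an end it was 0.12, against 0.09 over the table.

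Whether a gene had a listed region varied with its length. At least 1 region was nearest to 43.1% of the 58 members and to 20.8% of all 21887 protein-coding genes. Members are long genes, with a median of 64.3 kb against 17.2 kb for all. Among genes of 100 kb or longer, 13 of 25 members had a region (52.0%) and 44.6% of all genes. Between 20 and 100 kb it was 6 of 19 (31.6%) against 24.2%, and under 20 kb 6 of 14 (42.9%) against 13.6%. The 6 short members with a region are Chga, Scg2, Ptprn, Napa, Syt4 and Rab3a. The members were chosen with results of these data known, so their share is a description. A further list of 103 secretion genes outside the members had a region at 23 (22.3%), close to the share of all genes.

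**Figure D4:**
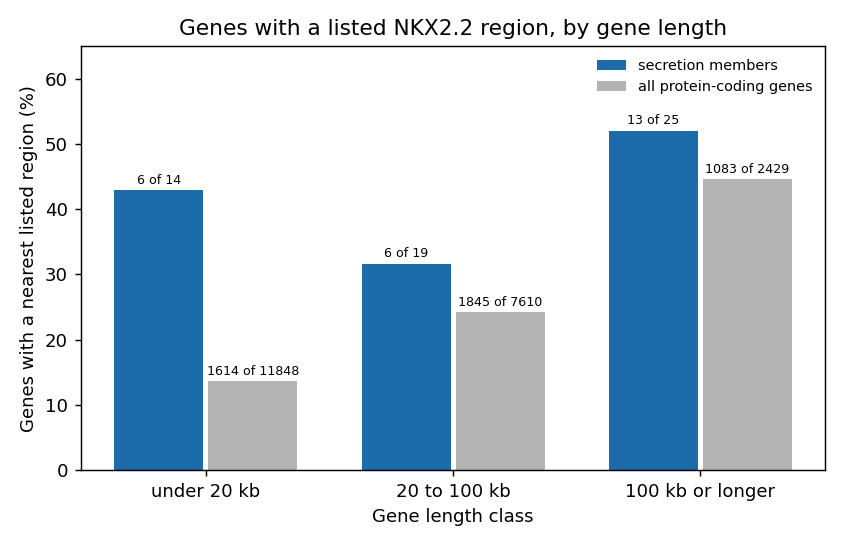
Share of genes (y axis, %) that are nearest to at least 1 listed region, in 3 classes of gene length (x axis), for the 58 members (blue) and for all protein-coding genes (grey), with the counts above each bar. Among members under 20 kb it is 42.9%, against 13.6% of all genes of that length.

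In that further list, which covers other syntaxins, synaptotagmins, synapsins, secretory carrier proteins, exocyst subunits and active-zone scaffolds, 43 regions were listed. None passed an FDR of 0.05, which 1.36% of all listed regions did. An unadjusted p-value under 0.05 was deposited for 3 (6.98%, against 11.2% of all regions), 2 listed as up and 1 as down. Over the 43 regions the median deposited log2 fold change was 0.14 and 62.8% were positive. Over all listed regions these were 0.04 and 56.8%. The smallest p-value belonged to a region 47.4 kb from Ica1, which encodes a protein linked to granule maturation, at 0.41 (the authors' p = 0.000881, FDR 0.0607). A region 62 bp from Pcsk1n, the proSAAS gene of the granin family, was at 0.90 in the authors' deposited table (p = 0.00784), and one within Stx18 was at -0.76 (p = 0.0181).

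For the 33 members without a region, the closest listed region lay between 2.3 and 1203.3 kb from the gene, with a median of 96.0 kb. Within 10 kb there was one for 3 of them, assigned to another gene. The closest, 2.3 kb from Vamp3, overlapped Gm38529 and was listed at -0.74 (the authors' p = 0.00207, FDR 0.0941). Those near Snap23 and Vamp2 overlapped Zfp106 and Per1, at -0.40 (the authors' p = 0.611) and -0.18 (p = 0.717). A gene without a listed region was not shown to lack NKX2.2, since the filter that decides which windows enter the table was not given in the sources used here.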

How the data were processed

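NKX2.2 ChIP-seq of alphaTC6 cells was read from 1 table, the authors' csaw comparison per the series' design text. The p-values and FDR values were deposited by the authors without their covariates, and the log2 fold changes were deposited with neither normalization nor numerator stated. Window numbers and coordinates are also as deposited. The submitters' processing notes name mm10, Bowtie2, FastQC and MACS2, without roles. No column holds a value per sample, so depth is unknown.

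The gene of a region was the closest of 21887 protein-coding ones (GRCm38.p6, the build of mm10), distance 0 if overlapping, ties to the gene end closer to the region's midpoint. The FDR column equals a Benjamini-Hochberg adjustment over all 6758 regions. All 58 symbols matched the gene table and 45 the RefSeq promoter table. The gene table has no exons. Members and lists were chosen with earlier results of these data known. Named were every member with a region, the 12 smallest p-values, regions within 1 kb of an end, the members with most regions, all cargo genes, and 3 regions of the further list. Functions were tested on simulated data. Scripts ran in Python 3.11.15 with pandas 2.3.3, numpy 2.4.6, matplotlib 3.10.9 and scipy 1.17.1. Alternatives varied thresholds, the gene rule, region filters and best windows.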

Additional observations from a re-analysis of the deposited data

How the results depend on the processing

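No paired analysis was possible because the deposited comparison has no column for any single culture. For the same reason no culture was left out, and neither another normalization nor a low-count filter was run. Under every alternative run, the number of member regions at the FDR threshold was 1, the Rab3b region, whose FDR ran from 0.00391 to 0.0062. The number of regions with an unadjusted p-value under 0.05 ran from 7 to 8. It was 7 with the p-value deposited for the best window, which leaves out Ptprn. With regions of at least 2 windows it was also 7, which leaves out Stxbp5l. Keeping only regions inside or within 10 kb of the member gave 7 as well. That leaves out Syt7 and with it the one region listed as down. Member regions numbered from 48, with the nearest gene of any type, to 62. Members with a region numbered 25 under each alternative run for that count. Counting every region within 10 kb of a member was not run for it. That rule would add the 3 members whose only region within 10 kb is assigned to another gene. The median log2 fold change ran from 0.07, over every region within 10 kb of a member, which was added after seeing the values, to 0.24 with best windows. Its 95% interval spans 0 in some of these, which is a description and no test, since regions are not replicates.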
